A study of Rattus norvegicus with 9 samples.

Results

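Glutathione transferases, microsomal glutathione transferases, glutathione peroxidases, peroxiredoxins, superoxide dismutases, gamma-glutamyltransferases, catalase (Cat) and glutathione synthetase (Gss) were followed through kidney cortex transcriptomes. Members were all rows of the deposited table whose symbol belongs to these families and whose mean was at least 10 over the 9 libraries. Of 18420 genes, 36 had such a symbol and 35 passed that minimum. The 36th, Gstm6, averaged 0.426 and had a read in 4 libraries. The members nearest above the minimum were Gstm3l at a mean of 15.0 and Ggt7 at 15.3.

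The tissue came from ZDF fa/fa rats, an obese strain without a working leptin receptor, labelled diabetic. All 9 libraries carried 1 treatment label, Medical Bypass, so they form 1 group with n = 9 and no treatment effect could be estimated. The labels give no drugs, doses, age or sex, and do not say whether replicates were separate animals. The p-values below therefore speak for the spread among these libraries alone, and that spread may be technical.

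Glutathione is a tripeptide thiol made in 2 steps, by glutamate-cysteine ligase (Gclc and Gclm) and then by Gss. Glutathione transferases join it to reactive electrophiles, glutathione peroxidases use it to reduce peroxides, and gamma-glutamyltransferase on the brush border of the proximal tubule starts its breakdown and salvage from the filtrate. Superoxide dismutases turn superoxide into hydrogen peroxide, which catalase, peroxidases and peroxiredoxins remove.

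Between 10757440 and 43071223 reads fell in genes per library. Levels below are reads over the size factor of their library, and 1 read was worth 0.544 to 1.99 such units. Gene length was not corrected for, so levels are compared between replicates of a gene and never between genes. Of all reads in genes, the members' summed share was 1.44% ± 0.136 (SD, n = 9), from 1.23% in replicate 9 to 1.64% in replicate 5. Genes of the proximal tubule marked the tissue, with 10 of 11 listed S1 and S2 genes matched. Their summed level ran from 231845 in replicate 1 to 446041 in replicate 8. That list was lowest in replicate 1, where the principal cell and intercalated cell lists were highest, at 26622 and 23908. In bulk tissue, fewer cells of a type and less RNA per cell cannot be told apart. Reads with more than 1 alignment, counted apart from genes, made up 14.9% to 22.1% of all counted reads. They can bear on these families, because near-identical paralogs can lose reads to that class. The split of reads among the alpha, mu and theta transferases is uncertain for the same reason. How many reads each member lost to that class was not measured.

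**Figure D1:**
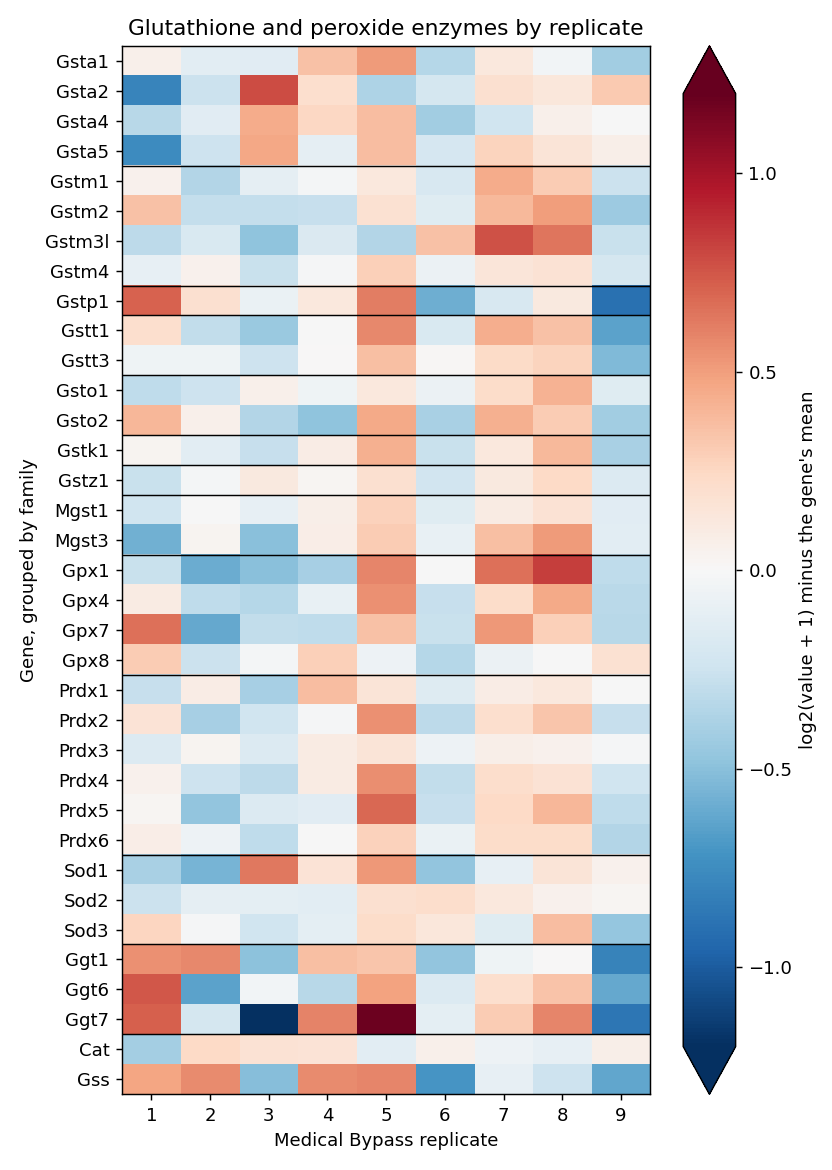
Each row is 1 of the 35 members, grouped by family, and each column a Medical Bypass replicate. Colour gives log2(value + 1) minus the gene's mean over 9 replicates. Gss and Ggt1 are both red in replicates 1, 2, 4 and 5, and Gpx1, Gpx4, Prdx2, Prdx4 and Prdx5 are reddest in replicate 5 or 8.

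How far the members differed between replicates was asked first. Among the 35, the highest replicate exceeded the lowest by more than 2-fold in 14, and the median ratio was 1.91, against 2.01 over the 13647 genes tested. Each gene's variance of log2(value + 1) was divided by the trend of variance on level. The median of this variance ratio was 1.32 for the members and 1.11 for all genes, and it exceeded 1 in 22 of 35 members, against 54.9% of all genes. The largest ratios among members belonged to Gss at 4.56, Gstp1 at 3.93, Gpx1 at 3.56, Ggt7 at 3.46, Ggt1 at 3.40 and Gsta2 at 3.36. The smallest belonged to the mitochondrial enzymes Prdx3 at 0.186 and Sod2 at 0.375. None of the members, and 0% of all genes, passed limma's variance test at an adjusted p under 0.05. At an unadjusted p under 0.05 it called 4.20% of all genes and 0 members, whose lowest p was 0.0667. The spread this test expects was estimated from the same genes, and Hmox1, outside the members, did not pass at a ratio of 55.1. A lack of calls therefore does not show that levels were alike between replicates. The order of the ratios is a description.

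**Figure D2:**
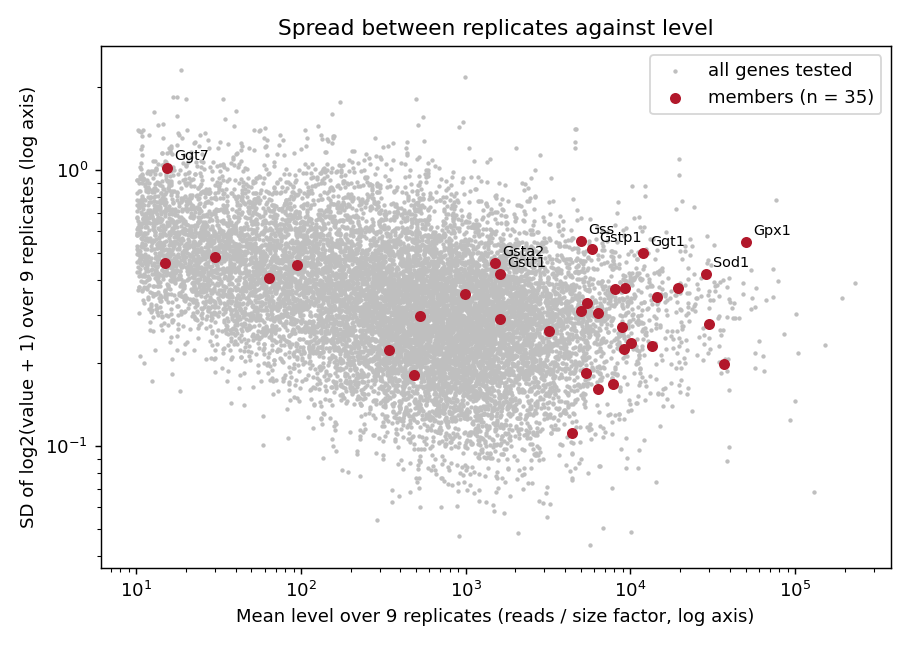
Each point is a gene, with its mean level over 9 replicates on the x axis and the SD of its log2(value + 1) on the y axis, both log axes. Red points are the 35 members, which lie across the cloud of all genes tested, and Prdx3 is the lowest of them.

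Gss, which completes glutathione synthesis, fell into 2 separate sets of replicates. Its level was 7072 in replicate 5, 6965 in replicate 4, 6951 in replicate 2 and 6515 in replicate 1. In the other replicates it was 4402 in replicate 7, 3950 in replicate 8, 3290 in replicate 3, 3047 in replicate 9 and 2872 in replicate 6. No replicate lay between 4402 and 6515, and the highest exceeded the lowest 2.46-fold.

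Ggt1, the brush border gamma-glutamyltransferase, was highest in the same 4 replicates. It stood at 16867 in replicate 2, 16520 in replicate 1, 14548 in replicate 4 and 14227 in replicate 5. The other levels were 11315 in replicate 8, 10884 in replicate 7, 8144 in replicate 6, 8026 in replicate 3 and 6462 in replicate 9. Across all genes, 1.62% had their 4 highest replicates in common with Gss, and among the other 34 members Ggt1 and Gstp1 did. For Gstp1, the pi class transferase, the margin was narrow, with 6060 in replicate 4 and 6013 in replicate 8.

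Slopes of every gene on the log2 level of Gss, the member with the largest variance ratio, were fitted with limma. Per SD of Gss, Ggt1 rose by 0.47 ± 0.078 on the log2 scale (SE, n = 9), with an adjusted p of 0.0257 over 13646 genes. It was the 1 member of 34 called, against 0.359% of all genes, which were 49 genes, all of them rising. Gstp1 had a slope of 0.43 ± 0.10 (limma adjusted p = 0.172), Gsta1 0.23 ± 0.082 (adjusted p = 0.457) and Ggt7 0.64 ± 0.26 (adjusted p = 0.457). Because Gss forms 2 sets of 4 and 5 replicates, no correlation coefficient is given, and a relation within either set was not tested. At an unadjusted p under 0.05, 4 members (Ggt1, Gstp1, Gsta1 and Ggt7) and 10.6% of all genes were called. The Ggt1 call held without replicate 5 or 8. Without replicate 1, 2, 3, 4, 6, 7 or 9 its adjusted p was 0.0574 to 0.161, while its slope stayed between 0.41 and 0.50.

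Partners of Gss in glutathione synthesis lie outside the 35 members and were taken from a pathway list. Gclc, the catalytic subunit of glutamate-cysteine ligase, stood at 41460 in replicate 2, 38557 in replicate 4, 27594 in replicate 1 and 18883 in replicate 5. In the remaining replicates it ran from 5844 in replicate 8 to 12242 in replicate 3. Its modifier subunit Gclm ran from 8103 to 16325 in those first 4 replicates and from 4443 to 7801 in the rest. Both therefore had the same 4 highest replicates as Gss. Their slopes on Gss did not pass, at 0.76 ± 0.18 for Gclc (limma adjusted p = 0.151) and 0.40 ± 0.13 for Gclm (adjusted p = 0.448). The variance ratio of Gclc was 12.1 and that of Gclm 4.69. Gsr, the reductase that regenerates glutathione, ran from 6645 to 9628 with its lowest level in replicate 1, and had a slope of -0.095 ± 0.071 (adjusted p = 0.545).

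Genes with no place in glutathione metabolism shared the Gss pattern too. Acss2, an acetyl-CoA synthetase, is the direct protein-coding neighbour of Gss in the current RefSeq annotation (GRCr8), and Ggt7 lies on its other side. Acss2 ranged from 3236 in replicate 6 to 10310 in replicate 2, with a slope of 0.63 ± 0.088 on Gss (limma adjusted p = 0.0130). Kap, the kidney androgen-regulated protein, ranged from 6713 in replicate 9 to 41901 in replicate 4, with a slope of 1.03 ± 0.12 (adjusted p = 0.00534). The largest statistic belonged to Tff3, a trefoil peptide, at 165.3 in replicate 9 to 1990 in replicate 1 and a slope of 1.46 ± 0.11 (adjusted p = 0.000272). Tff3, Kap and Acss2 were chosen after their values were seen. From the marker lists, 1 of 5 tested S3 segment genes (Slc22a7) and 1 of 4 adipose genes (Cidec) followed Gss. None of the 10 S1 and S2, 8 macrophage, 4 blood or 10 tubular injury genes did. The S3 transporter Slc7a13 ranged from 689.7 to 11449 and had a limma adjusted p of 0.0561. Other S3 slopes on Gss were 0.28 for Acy3 and 0.014 for Cyp7b1 (limma adjusted p = 0.457 and 0.951). Slc5a1 went the other way, at -0.18 (limma adjusted p = 0.482). Slc22a7 was read at low levels, with as few as 5 reads. Other adipose slopes on Gss were 0.42 for Fabp4, 0.12 for Adipoq and 0.083 for Cfd (limma adjusted p = 0.457, 0.553 and 0.836). Summed adipose levels ran from 691.2 in replicate 9 to 1440 in replicate 1, of which Cidec gave 231.7 and 792.8. Summed S3 levels ran from 8501 in replicate 9 to 21250 in replicate 2. The part of these cells in the Gss pattern was not tested.

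**Figure D3:**
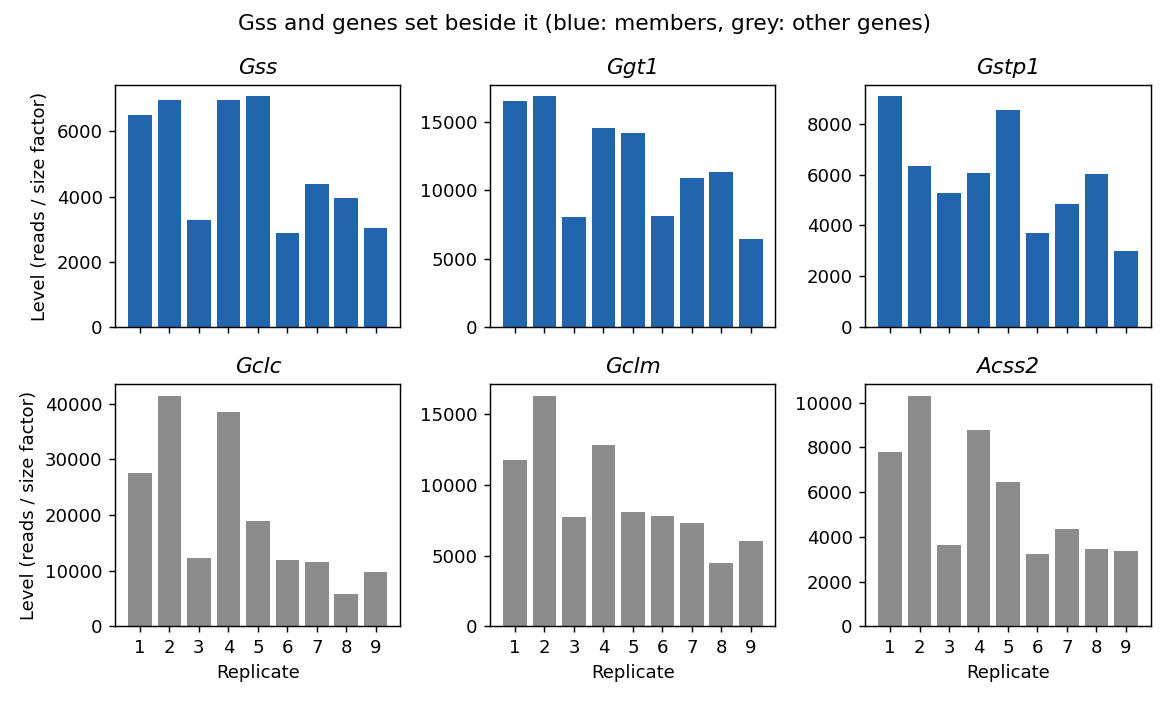
Bars give the level (reads divided by the size factor) of 6 genes in each of the 9 replicates, with blue for members and grey for other genes. Gss, Ggt1, Gclc, Gclm and Acss2 have their 4 tallest bars in replicates 1, 2, 4 and 5. Gstp1 does so by a narrow margin over replicate 8.

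Promoter windows are shown for Gss, for the 2 members with the largest statistics on it, and for Prdx1, which shares a motif with Gstp1. They run from 250 bases before to 50 after a start site, 5′ to 3′ on the gene's strand, from RefSeq on GRCr8. They were searched on both strands for TGACNNNGC, the core of the antioxidant response element bound by NRF2, and capitals mark each match. The Gss window is chr3:164538257-164538556 (minus strand), Ggt1 chr20:13095055-13095354 (minus), Gstp1 chr1:210769656-210769955 (minus) and Prdx1 chr5:135383656-135383955 (plus).
Gss: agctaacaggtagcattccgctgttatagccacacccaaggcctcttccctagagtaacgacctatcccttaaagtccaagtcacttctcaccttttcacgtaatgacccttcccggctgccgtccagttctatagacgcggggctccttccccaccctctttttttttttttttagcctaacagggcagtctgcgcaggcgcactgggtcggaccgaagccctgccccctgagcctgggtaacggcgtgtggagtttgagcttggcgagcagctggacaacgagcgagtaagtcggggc
Ggt1: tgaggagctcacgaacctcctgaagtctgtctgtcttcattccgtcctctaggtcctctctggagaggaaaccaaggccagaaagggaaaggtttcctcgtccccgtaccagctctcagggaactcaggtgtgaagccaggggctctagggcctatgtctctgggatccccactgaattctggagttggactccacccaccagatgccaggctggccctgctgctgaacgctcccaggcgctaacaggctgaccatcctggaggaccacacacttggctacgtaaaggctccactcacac
Gstp1: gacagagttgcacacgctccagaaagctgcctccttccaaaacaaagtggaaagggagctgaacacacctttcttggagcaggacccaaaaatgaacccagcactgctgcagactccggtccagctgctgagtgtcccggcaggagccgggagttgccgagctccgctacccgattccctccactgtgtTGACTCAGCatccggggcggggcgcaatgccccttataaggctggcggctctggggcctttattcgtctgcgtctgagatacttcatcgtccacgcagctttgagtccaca
Prdx1: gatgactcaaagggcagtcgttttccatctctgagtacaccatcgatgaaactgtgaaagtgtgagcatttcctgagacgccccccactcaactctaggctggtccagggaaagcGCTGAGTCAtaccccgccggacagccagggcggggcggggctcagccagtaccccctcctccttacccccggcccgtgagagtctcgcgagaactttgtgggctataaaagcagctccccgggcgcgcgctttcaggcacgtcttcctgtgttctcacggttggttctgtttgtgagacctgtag

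The letters of Gss and Ggt1 hold no match in these windows, while Gstp1 and Prdx1 each hold TGACTCAGC, on the plus and the minus strand of the gene. Windows were found for 30 of 35 members, 33 windows in all. Of these 33 windows 8 held TGACNNNGC, from 8 members: Gsta1, Gsta2, Gstp1, Gstz1, Prdx1, Prdx4, Prdx5 and Sod2. The motif occurred in 12.1% of all 33469 windows, and TGACTCAGC, which overlaps it, in 0.415%. Windows were matched by RefSeq's current symbol, so those of Gsta1 and Gsta2 may not belong to the genes measured under these names. A match describes letters and is not a binding site.

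The other gamma-glutamyltransferase genes were read at low levels. Ggt7, a family member whose enzymatic role is not established, ran from 1.99 in replicate 3, which was a single read, through a median of 16.0 to 30.0 in replicate 5. Ggt6 ran from 17.9 in replicate 2 through 27.9 to 48.3 in replicate 1. Gss was high in replicate 2, but also in replicates 1 and 5, where Ggt6 was highest (40.3 in replicate 5). In replicate 9, where Gss was low, Ggt6 stood at 18.2. Its slope on Gss was 0.11 ± 0.17 (limma adjusted p = 0.764).

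Alpha class transferases, abundant in proximal tubule cells and active on lipid peroxidation products, did not share 1 pattern. Gsta2 was lowest at 828.8 in replicate 1, had a median of 1582 and was highest at 2484 in replicate 3. Gsta5 had the same extremes, at 11150 in replicate 1 and 25840 in replicate 3, around a median of 19766. Gsta4, which acts on hydroxynonenal, ran from 3688 in replicate 6 through 4924 to 6724, again in replicate 3. Gsta1 was highest elsewhere, at 8954 in replicate 5, with a median of 6130 and a low of 4687 in replicate 9. Under RefSeq's current names, Gsta4, Gsta5 and Gsta2 are neighbours and Gsta1 lies apart from them. Symbols in this class have moved between annotations: RefSeq lists Gsta5 as an older name of its Gsta1, and Gsta2 as an older name of its Gsta5. Levels here go by the names of the deposited table, so RefSeq's order may not be that of the genes measured under these names.

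Mu class transferases, which form an uninterrupted run of Gstm2, Gstm1 and Gstm4 in RefSeq, differed less. Gstm1 ran from 2472 in replicate 2 through a median of 3104 to 4304 in replicate 7. Gstm2 ran from 708.1 in replicate 9 through 869.5 to 1360 in replicate 8. Gstm4 differed only 1.47-fold and Gstm3l 2.51-fold, the last on as few as 5 reads.

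Among the other soluble classes, Gstp1 differed most, from 2976 in replicate 9 through 6013 to 9069 in replicate 1, a 3.05-fold range. Gstt1 of the theta class ran from 1001 in replicate 9 through 1553 to 2324 in replicate 5. Its neighbour Gstt3 had the same extremes, at 20358 and 37864, around a median of 29598. Gsto1 of the omega class, which reduces dehydroascorbate, ran from 10762 in replicate 1 through 12847 to 17685 in replicate 8. Gsto2, next to it in RefSeq, ran from 43.5 in replicate 4 through 63.7 to 84.2 in replicate 5, so the pair did not share their lowest or highest replicate. The kappa class gene Gstk1 ran from 1209 in replicate 9 through 1620 to 2125 in replicate 5. Gstz1, a tyrosine catabolism enzyme of the zeta class, ran from 4442 in replicate 1 through 5454 to 6303 in replicate 8.

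Of the microsomal transferases, which sit in membranes, Mgst1 ran from 6637 in replicate 1 through 7817 to 9474 in replicate 5, a 1.43-fold range. Mgst3 differed 2.12-fold, from 5262 in replicate 1 through 8027 to 11172 in replicate 8.

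Among the glutathione peroxidases, Gpx1, the cytosolic selenoenzyme, fell into separate sets of replicates. It stood at 83223 in replicate 8, 74341 in replicate 7 and 70454 in replicate 5. In the other 6 replicates it ran from 31010 in replicate 2 to 46750 in replicate 6, with none between. Gpx4, the selenoenzyme that reduces lipid hydroperoxides in membranes, ran from 11223 in replicate 3 through 13357 to 20841 in replicate 5, and its 3 highest replicates were also 5, 7 and 8. Gpx7 of the endoplasmic reticulum ran from 59.0 in replicate 2 through 75.2 to 144.0 in replicate 1. Gpx8, also of that compartment, differed 1.57-fold and was highest in replicate 1 too.

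Peroxiredoxins had ranges from 1.24-fold, the narrowest among the members, to 2.23-fold. Prdx5, found in mitochondria and peroxisomes, ran from 6527 in replicate 2 through 8235 to 14544 in replicate 5. Prdx2, abundant also in red cells, ran from 4051 in replicate 2 through 5305 to 7844 in replicate 5. Prdx1, its cytosolic relative, ran from 7590 in replicate 3 through 10605 to 12885 in replicate 4. Prdx4 of the secretory pathway ran from 416.0 in replicate 3 through 535.7 to 764.3 in replicate 5. Prdx6, which uses glutathione, differed 1.54-fold and the mitochondrial Prdx3 1.24-fold. The haemoglobin gene Hba-a2 was highest in replicate 5 at 26196 and lowest in replicate 6 at 2920. It stood at 18453 in replicate 3 and 7564 in replicate 8, where Prdx2 stood at 4531 and 6722. The part of blood in the Prdx2 level was not tested.

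Sod1, the cytosolic superoxide dismutase, ran from 18780 in replicate 2 through 28641 to 42967 in replicate 3, where Gsta2, Gsta4 and Gsta5 also peaked. Sod3, the secreted form, ran from 6348 in replicate 9 through 8685 to 11377 in replicate 8. Sod2 in mitochondria differed 1.38-fold. Cat, the peroxisomal catalase, ran from 27641 in replicate 1 through 38208 to 43165 in replicate 2, a 1.56-fold range.

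Whether members followed the multi-aligned share, a library measure, was tested with limma slopes over all genes. Of the 35 members 11 (31.4%) were called, all rising with the share, against 35.0% of all genes called in either direction. Split by direction, 16.3% of all genes rose and 18.7% fell. In sign alone, 32 of 35 members had a positive slope, with a median slope of 0.17 per SD of the share for the members and 0.016 for all genes. The total of calls was thus close to the share of the whole table.

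The 3 members with the largest statistics on that share were peroxiredoxins. Prdx2 rose by 0.30 ± 0.062 on the log2 scale per SD (SE, limma adjusted p = 0.00401). Its level correlated with the share at a Pearson r of 0.920 (exact permutation p = 0.000433) and a Spearman rho of 0.90 (exact permutation p = 0.00203). Leaving out replicates 1 and 5, the 2 farthest from the median share, gave r = 0.940. Prdx5 rose by 0.33 ± 0.074 (limma adjusted p = 0.00620), with r = 0.874 (exact permutation p = 0.00279) and rho = 0.867 (exact permutation p = 0.00451); leaving out the same replicates gave r = 0.874. Prdx4 rose by 0.27 ± 0.063 (limma adjusted p = 0.00799), with r = 0.897 (exact permutation p = 0.00156) and rho = 0.783 (exact permutation p = 0.0172), and r = 0.880 once those were left out. The permutation tests are two-sided, their p-values are unadjusted, and 8 such relations were computed in all. Their genes were picked among all members for large limma statistics on the same values. The permutation p-values are therefore not separate support and do not account for that choice.

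Also called were Gpx4 at 0.30 ± 0.074 (limma adjusted p = 0.00926), Gstt1 at 0.33 ± 0.086 (adjusted p = 0.0121), Gstk1, Gstp1, Gsta1, Ggt7, Ggt6 and Gpx7, with adjusted p up to 0.0466. None of the superoxide dismutases, catalase or microsomal transferases was. Replicate 5 had the highest share, and without it 12.8% of all genes and 1 member, Prdx2, were called. Without replicate 6 or 9 the members called numbered 7. Some cell type markers were called on the share, against 16.3% of all genes rising and 18.7% falling, with 3 of 8 macrophage genes (C1qa, C1qb and C1qc), 2 of 5 principal cell genes, 2 of 10 tubular injury genes and 1 of 4 adipose genes rising, and 1 of 10 S1 and S2 genes and 1 of 5 S3 genes falling. Of the macrophage genes not called, Cd68, Lyz2 and Csf1r had slopes of 0.23, 0.11 and 0.065 on the share. Adgre1 and Mrc1 went the other way, at -0.075 and -0.245. Summed macrophage levels ran from 6258 in replicate 3 to 9400 in replicate 5, of which Lyz2 gave 4527 and 6559. None of the 4 blood, 6 intercalated cell or 3 thick ascending limb genes tested was called. The part of these cells, or of alignment itself, in the members' slopes was not tested.

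**Figure D4:**
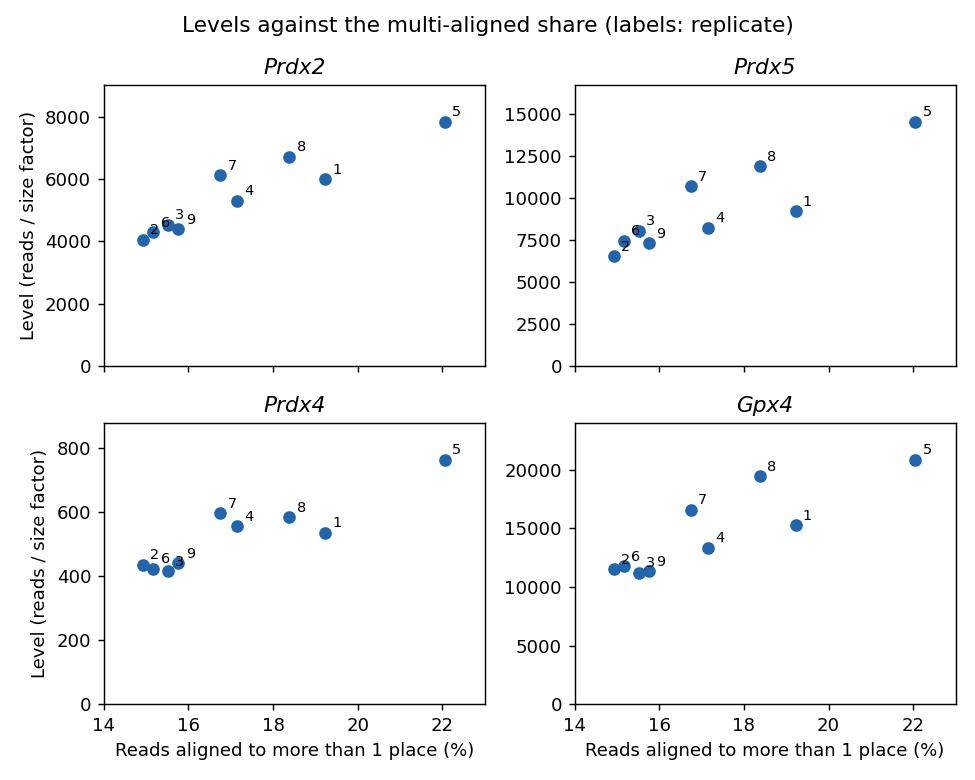
Points are the 9 replicates, labelled by number, with the percentage of reads that had more than 1 alignment on the x axis and the level of Prdx2, Prdx5, Prdx4 or Gpx4 (reads divided by the size factor) on the y axis. Replicate 5, at 22.1%, is highest in each panel, and replicates 2, 3, 6 and 9 are lowest at 14.9% to 15.8%.

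**Figure D5:**
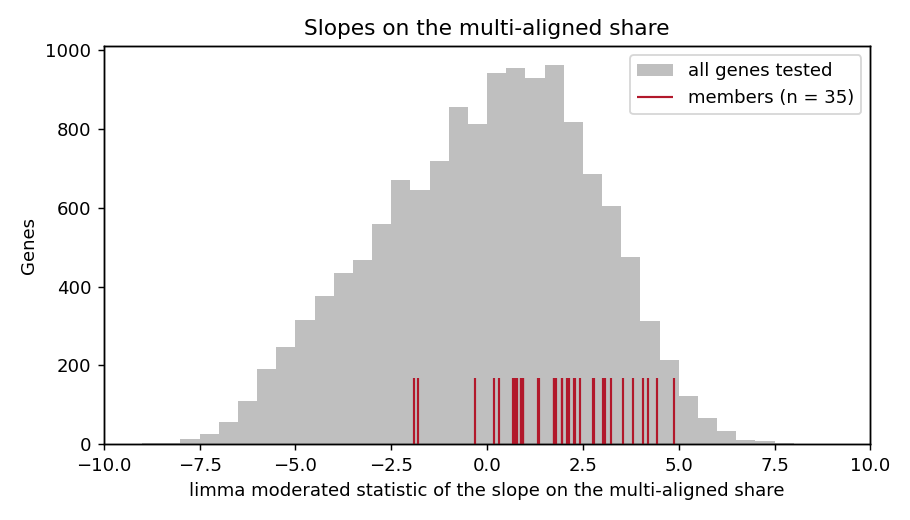
The grey histogram counts all 13647 genes by limma's moderated statistic for the slope on the multi-aligned share, and each red line is 1 of the 35 members (line height carries no value). All but 3 members lie to the right of 0, within the body of the histogram.

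Kidney injury and haem stress were set against the members next. On Havcr1, which encodes the tubular injury marker KIM-1, limma called 0 members and 0% of all genes at an adjusted p under 0.05. At an unadjusted p under 0.05 it called 3 members and 3.65% of all genes. The slopes of 31 of 35 members were negative, with a median of -0.11, against -0.010 over all genes. Gstm1 had the largest statistic, at -0.20 ± 0.075 (limma adjusted p = 0.705), with an r of -0.771 (exact permutation p = 0.0141) and a rho of -0.667 (exact permutation p = 0.0589). Its r was -0.474 without replicates 7 and 9, so the relation rested on them. Gstm2 stood at -0.23 ± 0.097 and Gpx7 at -0.30 ± 0.13 (both limma adjusted p = 0.705). On Hmox1, the haem-degrading stress enzyme of the NRF2 pathway, 0 members and 0% of all genes were called, with 2 members and 2.81% of all genes at an unadjusted p under 0.05. Ggt1 had a slope of -0.33 ± 0.13, Gstp1 -0.31 ± 0.14 and Gss -0.30 ± 0.15 (each limma adjusted p = 1.00). Called counts on Havcr1 and Hmox1 were also 0 for members by edgeR and DESeq2.

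Against a score of S1 and S2 proximal tubule genes, 0 members and 0.00733% of all genes, which was 1 gene, were called by limma. At an unadjusted p under 0.05 the counts were 5 members and 8.86% of all genes. Mgst3 had the largest statistic, at 0.34 ± 0.067 (limma adjusted p = 0.148), with r = 0.917 (exact permutation p = 0.000143) and rho = 0.950 (exact permutation p = 0.000353). Leaving out replicates 1 and 8 gave r = 0.852. Gpx1 stood at 0.41 ± 0.12 (adjusted p = 0.337) and Gsto1 at 0.19 ± 0.063 (adjusted p = 0.388). Replicate 1, with the lowest score, decided these counts. Without it 28.4% of all genes and 13 members were called, all rising, among them Mgst3, Gpx1, Gsto1, Prdx2, Prdx5 and Gpx4.

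Pathway genes outside the families gave the surroundings of these enzymes. Of 22 tested genes of glutathione synthesis, recycling and transport, 4 rose and 2 fell with the multi-aligned share. For this list and those that follow, the shares over all genes were 16.3% rising and 18.7% falling, 35.0% in all, and nothing particular to a list is read from its count. Those that fell, Abcc2 and Abcc4, are efflux pumps for conjugates and organic anions, and Abcc2 ran from 310.5 in replicate 1 to 1441 in replicate 9. Slc25a10, a mitochondrial dicarboxylate carrier, was not called on any measure. In the thioredoxin system, which recharges peroxiredoxins, 4 of 11 rose (Txn2, Txnrd2, Nxn and Msrb2) and 0 fell, against the same 35.0% of all genes called. Txnrd1 ran from 4921 to 7653 and the thioredoxin inhibitor Txnip from 7895 to 20139, and neither was called.

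In the NRF2 pathway 1 of 14 genes rose with the share (Keap1, its inhibitor) and 1 fell (Bach1, a repressor of its targets), and 2 rose with Gss. These were Osgin1 at 0.59 ± 0.087 (limma adjusted p = 0.0159) and Akr7a3, an aldehyde reductase, at 0.43 ± 0.079 (adjusted p = 0.0451). Over all genes, 0.359% were called on Gss. The median slope of the NRF2 list on Gss was -0.0034. Nqo1 stood at 0.23 and Hmox1 at -1.18 (both limma adjusted p = 0.457). The gene for NRF2 itself, Nfe2l2, ran from 4441 to 6140. Of 7 genes of selenoprotein synthesis and supply, 1 rose (Selenow) and 1 fell (Sepsecs) with the share, and Sephs2 and Sephs1 were not called. Among 11 sources of superoxide and peroxide 1 rose and 3 fell with it. Cyba, a subunit of NADPH oxidases, rose and ran from 2632 in replicate 3 to 8732 in replicate 5. Its catalytic partner Nox4 fell and ran from 845.3 in replicate 1 to 2406 in replicate 6. Hao2, a peroxisomal hydroxyacid oxidase, was lowest in replicate 1, where Cat was lowest too, and was not called on any measure.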

How the data were processed

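Stranded mRNA libraries from 9 kidney cortex samples were analysed as 1 group, with replicate numbers from the sample titles. Per the submitters' processing notes, FastQC 0.11.2, MultiQC 0.9, HTSeq 0.6.1p1, DESeq2 and the build Rnor_5.0 were used; the aligner is not given in the sources used here. What the authors deposited is a normalized signal, in which each library's read counts per gene were divided by its size factor. Whole reads were recovered, since low values were multiples of 1 step in each library (100% of values within 0.1 read of a whole number). The 3 rows that name no gene stayed out of library sizes and tests. The multi-aligned row was 17.2% ± 2.33 of all counted reads (SD, n = 9). Correlations between pairs of libraries ran from 0.939 to 0.993, and the chi-square per degree of freedom was at least 17.5, so no library was a copy of another.

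Values were taken as log2(value + 1), for 13647 genes with a mean of at least 10. Variances and slopes were fitted with limma 3.58.1 (R 4.3.3, robust trend, two-sided for slopes) over all these genes, with Benjamini-Hochberg adjustment and a threshold of 0.05. The slope and variance fits were run on simulated data, in which genes were independent and most had the same noise level. The genes here differ in spread and vary together, so that check does not tell how many real effects these fits would call. Fold changes on this scale understate changes of low genes. Slopes were fitted on the multi-aligned share, Havcr1, Hmox1, the mean z-score of 10 S1 and S2 genes, and the member with the largest variance ratio, in SD units. Permutation tests used all orderings of 9 replicates. Alternatives were other pseudocounts, filters and scalings, each replicate left out, edgeR 4.0.16 and DESeq2 1.42.0 on recovered reads, and second covariates.

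All members could be named. The lowest, median and highest replicate were given for the 2 members with the highest levels and the 2 with the largest variance ratios per family, and for the 3 with the largest statistics per slope; other genes were chosen after their values were seen. In pathway lists the 2 genes with the highest levels and the 2 with the largest variance ratios could be named, and not all are printed. A gene that this rule names is not reported here. Members, lists and rules were chosen with earlier results of these data known. RefSeq names and promoter windows come from GRCr8. A transcript length table was not used here.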

Additional observations from a re-analysis of the deposited data

How the results depend on the processing

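No paired analysis was possible because the labels give a single group. In each alternative run for them, 0 genes passed the variance test and 0 followed Havcr1 or Hmox1 at an adjusted p under 0.05. Second covariates, added after the data were seen, were fitted only for the slopes on the multi-aligned share, Gss and the proximal tubule score. Leaving out each replicate in turn moved the genes called on the multi-aligned share between 1744 and 4977, from 4774, and the members between 1 and 12, from 11. With log2 library size as a second term 7 members were called. For Gss, 8 to 50 genes and 0 to 1 members were called without 1 replicate, against 49 and 1; the genes numbered 8 without replicate 1, 9 without replicate 9, 16 without replicate 4, 24 without replicate 6 and 28 without replicate 7. DESeq2 called 148 genes and 2 members, and 109 genes were called with the multi-aligned share as a second term. For the proximal tubule score, 0 to 3874 genes and 0 to 13 members were called without 1 replicate, against 1 and 0. DESeq2 called 183 genes and 1 member, the share as a second term gave 164 genes and 1 member, and library size as a second term or the same total per library gave 0 genes. The cause was not tested. Scaling to the same total moved the median of all genes by -0.13 to 0.17 on the log2 scale between libraries, and under it Cat fell with the multi-aligned share. Members with a low mean, such as Ggt7 and Gstm3l, are limited by depth.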
